A study of Mus musculus with 15 samples.

Results

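Expression was examined for 7 genes of electrical conduction in the heart: the pacemaker channel genes Hcn2, Hcn3 and Hcn4, the sodium channel beta subunit gene Scn4b, and the connexin genes Gja1, Gja5 and Gjc1. They were chosen by name from the 39331 genes of the deposited count table. RNA came from left ventricles of C57BL/6 mice, and every sample is labelled as having undergone experimental myocardial infarction, so no group is uninfarcted. The libraries formed 4 groups: neonatal hearts without transferred cells (neonatal controls 6, 7, 8 and 9, n = 4), neonatal hearts that received adult T cells (neonatal recipients 1, 2, 4 and 5, n = 4), adult hearts without transferred cells (adult controls 5, 6 and 7, n = 3) and adult hearts that received adult T cells (adult recipients 1 to 4, n = 4). A time of 36 h after infarction is stated for neonatal hearts only, and the wording leaves unclear whether the hearts were collected or the T cells transferred then. The time in adult hearts, ages in days, sexes, infarct size and T cell dose are not given in the sources used here. Nor do the labels say whether a library is a single animal or a pool, so p-values measure the spread between these libraries.

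HCN channels are cation channels that open on hyperpolarisation and are modulated by cyclic nucleotides, and the inward current they carry drives spontaneous firing in the sinus node. Hcn4 is the main form of the node, Hcn2 is found more widely in the myocardium, and Hcn3 is usually a minor form. Scn4b encodes a beta subunit that modifies the gating of voltage-gated sodium channels, which carry the upstroke of the ventricular action potential. Connexins form the gap junctions through which that action potential passes from cell to cell. Gja1 encodes the main connexin of working ventricular muscle and is also made by fibroblasts and other cells, Gja5 encodes the connexin of atria, the Purkinje system and arterial endothelium, and Gjc1 encodes a connexin of the node, the early heart and vascular smooth muscle.

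The table places Hcn2 (gene ID 15166) on GRCm38.p6 chromosome 10, 79716634 to 79736108, Hcn4 (330953) on chromosome 9, 58822949 to 58863175, and Hcn3 (15168) on chromosome 3, 89146775 to 89160284. Scn4b (399548) lies on chromosome 9, 45138624 to 45154155. Gja1 (14609) lies on chromosome 10, 56377300 to 56390419, Gja5 (14613) on chromosome 3, 97032402 to 97053634, and Gjc1 (14615) on chromosome 11, 102799477 to 102819686. All are protein-coding. Values are for whole genes, over all exons. The span of Hcn3 overlapped that of Pklr on the other strand by 41 bases, and that of Gja5 overlapped 4930573H18Rik on the other strand by 6979 bases. Those neighbours held mean counts of 0.817 and 9.44 per library, and the strand setting of the counting is not given in the sources used here. The other members overlapped no gene of the table.

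Upstream sequences are shown for 2 pairs of related genes, because in each pair 1 gene was called between ages in both comparisons and the other was not called in controls. The RefSeq promoter table for GRCm38.p6 held 5 of the 7 members. Each run is the 250 bases before the annotated gene start, 5′ to 3′ on the gene's strand. Capitals mark matches on either strand to any of 4 motifs: the GC box GGGCGG, the T-box element AGGTGTGA, the GATA motif GATAA and the NK2 motif AAGTG. Neighbouring matches can join into 1 run of capitals. Hcn2 is shown from chr10:79716384-79716633, Hcn4 from chr9:58822699-58822948, Gja5 from chr3:97032152-97032401 and Gja1 from chr10:56377050-56377299, all on the plus strand.
Hcn2: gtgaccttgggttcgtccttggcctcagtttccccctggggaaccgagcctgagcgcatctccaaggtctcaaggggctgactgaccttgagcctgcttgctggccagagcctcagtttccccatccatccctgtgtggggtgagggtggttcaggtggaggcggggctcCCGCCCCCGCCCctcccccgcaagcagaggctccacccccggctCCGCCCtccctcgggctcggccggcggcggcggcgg
Hcn4: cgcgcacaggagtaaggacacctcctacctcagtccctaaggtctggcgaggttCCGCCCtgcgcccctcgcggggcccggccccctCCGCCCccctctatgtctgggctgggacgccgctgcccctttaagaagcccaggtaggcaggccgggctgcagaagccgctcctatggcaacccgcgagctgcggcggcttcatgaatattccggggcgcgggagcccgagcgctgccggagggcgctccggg
Gja5: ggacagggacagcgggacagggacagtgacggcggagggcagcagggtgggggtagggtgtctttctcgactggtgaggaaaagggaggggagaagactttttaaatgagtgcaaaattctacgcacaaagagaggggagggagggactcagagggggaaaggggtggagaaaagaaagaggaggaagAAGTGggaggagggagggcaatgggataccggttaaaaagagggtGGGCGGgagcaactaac
Gja1: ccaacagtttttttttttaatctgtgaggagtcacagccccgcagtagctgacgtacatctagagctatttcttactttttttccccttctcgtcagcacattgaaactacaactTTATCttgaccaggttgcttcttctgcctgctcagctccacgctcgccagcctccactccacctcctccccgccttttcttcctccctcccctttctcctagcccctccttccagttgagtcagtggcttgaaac

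The upstream runs of Hcn2 and Hcn4 were alike in composition, with 70.4% and 71.2% G or C, while Gja5 and Gja1 had 56.4% and 50%. The GC box matched 3 times in Hcn2, 2 times in Hcn4, 1 time in Gja5 and not in Gja1. It was present in 32.7% of the 32851 upstream windows of the same length in the table. GATAA matched once in Gja1 (22.6% of windows) and AAGTG once in Gja5 (40.7% of windows). AGGTGTGA, present in 1.12% of windows, matched in none of the 4. These are matches of letters and not measured binding sites.

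Total counts ran from 21871617 to 34302786 per library. Levels are CPM, read counts relative to library size after scaling by the trimmed mean of M values (TMM), and 3 counts corresponded to 0.0814 to 0.147 CPM, a floor that covers counting error only. Differences are log2 fold changes ± standard error from 1 edgeR fit over all 15 libraries, and a gene was called where its p, adjusted by Benjamini-Hochberg over the 16437 genes tested, was under 0.05. Of the members, 6 passed the low-count filter and were tested, and Scn4b did not pass. Cardiomyocyte markers were abundant in every library (36550 to 58990 CPM summed over 10 genes). Their sum was 41870 to 43540 CPM in neonatal and 45010 to 48780 CPM in adult controls. In recipients it was 36550 to 45620 and 54090 to 58990 CPM. Of the 10 genes, 0 were called higher and 3 lower in neonatal controls (30.9% of all genes were called). In neonatal recipients 1 was higher and 8 lower (50.7%). The part of muscle content in the age differences was not tested. The nodal markers Isl1 and Vsnl1 had only 5 and 12.64 counts over all 15 libraries. Others of the 14 nodal and conduction markers were well detected, such as Cacna1g (79.2 and 107 CPM in neonatal and adult controls). That list summed to 178.8 to 200 CPM in neonatal and 237 to 263.1 CPM in adult controls. Its largest parts were Cacna1g and Smoc2 (28.7 and 56.8 CPM), so the sum does not by itself give the amount of conduction tissue. Of 11 list genes tested, 1 was called higher in neonatal controls, Tbx18 (22.4 and 13.65 CPM), and 4 lower (30.9% of all genes were called). In recipients 3 were higher and 5 lower (50.7%). The part of conduction tissue in the age differences was not tested. Atrial Sln had 0 to 6 counts in 13 of the libraries, but 47 in adult recipient 2 and 18 in adult recipient 4. The share of counts from the mitochondrial genome was 11.1 to 16.2% in neonatal libraries, 18.3 to 21.8% in adult controls and 12.9 to 18% in adult recipients. It thus differed between control hearts of the 2 ages without overlap, and its part in the age differences was not tested. In bulk ventricle, fewer cells of a type and less RNA per cell cannot be told apart.

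**Figure D1:**
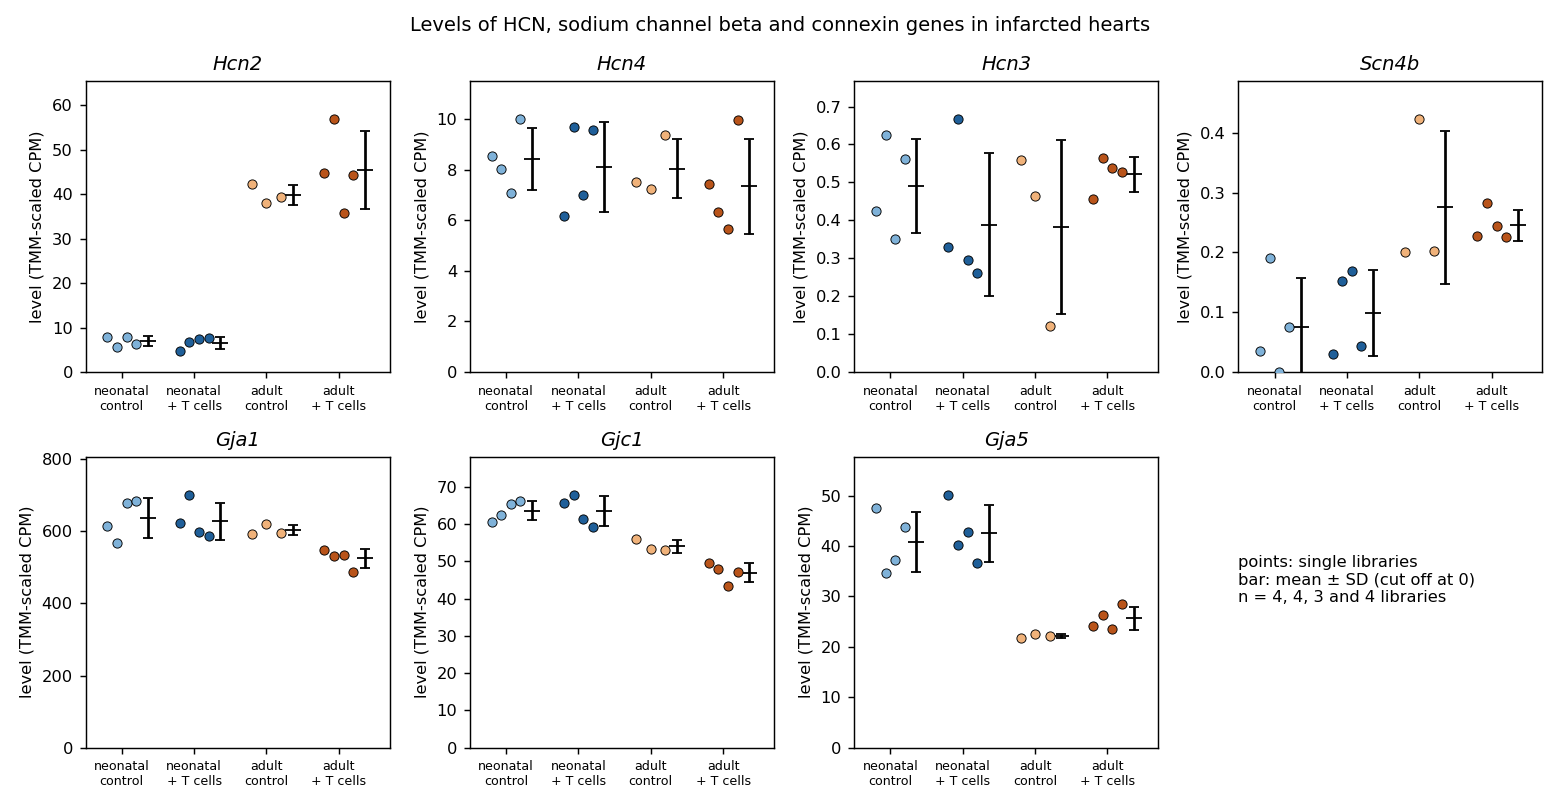
Level of each gene in TMM-scaled CPM (y axis, linear, from 0) in the 4 groups; points are libraries, bars are mean ± SD with n = 4, 4, 3 and 4, not drawn below 0. Hcn2 lies between 4.64 and 7.93 CPM in neonatal and between 35.7 and 56.9 CPM in adult libraries, while Gja5 lies above 34 CPM in every neonatal and below 29 CPM in every adult library.

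Hcn2 was the tested member with the largest fold difference between ages, with more RNA in adult ventricles. It measured 7.81, 5.65, 7.93 and 6.26 CPM in neonatal controls 6, 7, 8 and 9, and 4.64, 6.70, 7.38 and 7.69 CPM in neonatal recipients 1, 2, 4 and 5. In adult controls 5, 6 and 7 it measured 42.3, 37.98 and 39.3 CPM, and in adult recipients 1 to 4 it measured 44.8, 56.9, 35.7 and 44.4 CPM. Every adult library lay above every neonatal library. The 2 groups of each age overlapped. In controls Hcn2 was 5.77-fold lower in neonatal than in adult hearts (log2 fold change -2.53 ± 0.17, adjusted p = 3.9e-08, edgeR). In recipients it was 6.93-fold lower (log2 fold change -2.79 ± 0.16, adjusted p = 4.29e-09, edgeR). By p-value it ranked 10 and 12 among the 16437 genes of these comparisons.

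Adult recipient 2, the library with the highest Hcn2, also had the highest level of Myl7, the atrial regulatory light chain of myosin. Myl7 measured 35.5 CPM there, 9.28 CPM in adult recipient 4, 2.15 and 2.23 CPM in the other adult recipients and 1 to 3.21 CPM in adult controls. In neonatal libraries Myl7 ranged from 3.12 to 8.20 CPM. Without adult recipient 2 the age difference of Hcn2 in recipients was -2.67 ± 0.15 (adjusted p = 9.45e-09, edgeR). Atrial Sln followed Myl7, with 47 counts in adult recipient 2, 18 in adult recipient 4 and 0 in the other adult recipients. The mean log2 CPM of the 8 atrial markers was also higher in adult recipients 2 and 4 than in every other adult library. Nppa, the gene of atrial natriuretic peptide, did not follow Myl7, at 215 CPM in adult recipient 2 and 3410 CPM in adult recipient 4. It was most of the summed level of the 8 markers, 382.6 CPM in adult recipient 2 and 3567 CPM in adult recipient 4. The part of atrial cells in the Hcn2 values was not tested.

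Hcn4 stood at a similar level in all 4 groups. It measured 8.55, 8.03, 7.07 and 10.01 CPM in neonatal controls 6 to 9, and 6.17, 9.70, 7.01 and 9.56 CPM in neonatal recipients 1, 2, 4 and 5. Adult controls 5 to 7 had 7.52, 7.23 and 9.37 CPM, and adult recipients 1 to 4 had 7.42, 6.31, 5.67 and 9.96 CPM. All pairs of groups overlapped. The age difference in controls was 0.063 ± 0.193 on the log2 scale, with a 95% interval from -0.32 to 0.44 (the difference ± 1.96 standard errors; adjusted p = 0.836). In recipients it was 0.14 ± 0.18, with an interval from -0.22 to 0.49 (adjusted p = 0.558). The sign of these differences turned when the transcript length trend was removed, to -0.0017 and -0.10. A difference of the size of that of Hcn2 lies outside both intervals, while differences within them could not be detected with these libraries.

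Hcn3 was scarce, with 3 to 23 counts per library. Its mean was 0.491 ± 0.125 CPM in neonatal controls, 0.388 ± 0.188 in neonatal recipients, 0.382 ± 0.231 in adult controls and 0.521 ± 0.0468 in adult recipients (SD, n = 4, 4, 3 and 4). Adult control 7 was lowest at 0.122 CPM, near the floor, and neonatal recipient 2 highest at 0.667 CPM. Hcn3 differed between ages by 0.36 ± 0.44 in controls and -0.38 ± 0.40 in recipients, and neither difference was called (adjusted p = 0.564 and 0.45, edgeR).

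Because the 3 HCN transcripts differ in length, their levels were compared as CPM per kb of the longest annotated transcript (3195, 4002 and 6118 bases for Hcn2, Hcn3 and Hcn4). On that scale neonatal controls had 2.16 ± 0.355 CPM per kb of Hcn2 and 1.38 ± 0.201 of Hcn4, and adult controls had 12.5 ± 0.688 and 1.31 ± 0.190. Hcn2 therefore stood above Hcn4 at both ages, by a small margin in neonates and a wide margin in adults. Hcn4 made up 35.4, 40.6, 31 and 43.8% of the summed HCN level in neonatal controls 6 to 9, and 39.6, 41.2, 32.4 and 38.7% in neonatal recipients. Its share was 8.42, 8.97 and 11.1% in adult controls and 7.91, 5.43, 7.58 and 10.4% in adult recipients. The shares of neonatal and adult libraries did not overlap. The share of Hcn3 was 1.61 to 4.82% in neonatal and 0.22 to 1.1% in adult libraries. Use of another transcript as the length would move all libraries' shares together.

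**Figure D2:**
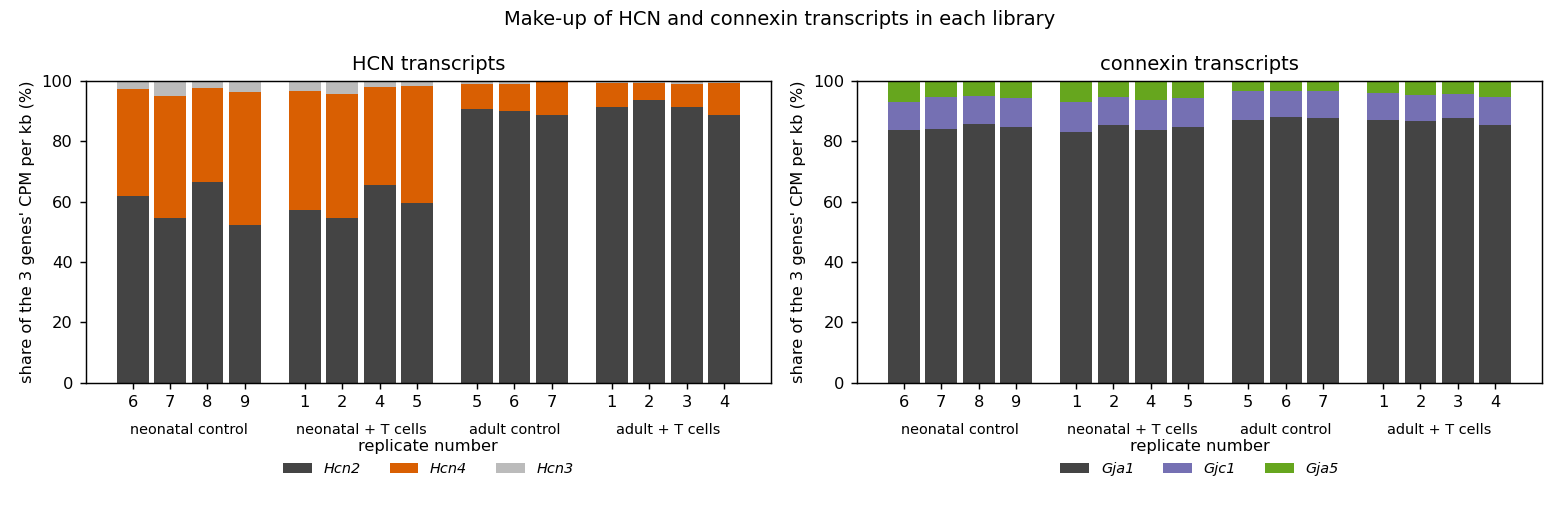
Stacked bars give the share (%) of each gene in the summed CPM per kb of the 3 HCN genes (left) and the 3 connexin genes (right), 1 bar per library. Hcn4 takes 31 to 43.8% of the HCN level in neonatal libraries and 5.43 to 11.1% in adult libraries, and Gja1 takes 83 to 88% of the connexin level throughout.

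Scn4b was near the limit of detection at both ages. Neonatal controls 6 to 9 held 1, 7, 0 and 2 counts and neonatal recipients 1, 2, 4 and 5 held 1, 5, 4 and 1. Adult controls 5 to 7 held 5, 10 and 5 counts and adult recipients 1 to 4 held 5, 6, 5 and 6. Adult libraries held 5 to 10 counts and neonatal libraries 0 to 7, which overlap. Scaled for library size, the neonatal libraries reached 0.19 CPM and the adult libraries began at 0.2 CPM, a gap of less than the worth of 1 count. With no low-count filter Scn4b was not called between ages in controls or in recipients (adjusted p = 0.105 and 0.179, edgeR). The mean level was 0.0751 ± 0.0825 CPM in neonatal controls and 0.275 ± 0.128 CPM in adult controls, and the first lies under the floor of 3 counts, so no fold is given.

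Gja1 was by far the most abundant member. It measured 615, 566, 677 and 684 CPM in neonatal controls 6 to 9, and 623, 701, 598 and 586 CPM in neonatal recipients 1, 2, 4 and 5. Adult controls 5 to 7 had 593, 619 and 596 CPM, and adult recipients 1 to 4 had 547, 533, 533 and 487 CPM. The control groups of both ages overlapped, while all adult recipients lay below all other libraries. Between control hearts the age difference was 0.077 ± 0.085 and was not called (adjusted p = 0.526, edgeR). Between recipients Gja1 was 1.19-fold higher in neonatal hearts (log2 fold change 0.26 ± 0.078, adjusted p = 0.0107, edgeR). That call was lost after removal of the transcript length trend (0.14 ± 0.079, adjusted p = 0.138). Fibroblast markers summed to 5014 to 7855 CPM in neonatal and 4709 to 7667 CPM in adult libraries. Of 10 genes, 1 was called higher and 4 lower in neonatal controls, and 2 higher and 4 lower in neonatal recipients. Macrophage markers were higher in neonates, with 6 of 10 called higher in controls and 10 of 10 in recipients. Of all genes, 30.9% were called in controls and 50.7% in recipients. The parts of fibroblasts and macrophages in the Gja1 values were not tested.

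Gja5 was higher in neonatal hearts. It measured 47.5, 34.6, 37.3 and 43.8 CPM in neonatal controls 6 to 9 and 50.2, 40.3, 42.8 and 36.7 CPM in neonatal recipients 1, 2, 4 and 5. It measured 21.8, 22.6 and 22.1 CPM in adult controls 5 to 7 and 24.2, 26.4, 23.6 and 28.4 CPM in adult recipients 1 to 4. No neonatal library overlapped an adult library. The difference was 1.84-fold in controls (log2 fold change 0.88 ± 0.12, adjusted p = 2.71e-05, edgeR) and 1.66-fold in recipients (0.73 ± 0.11, adjusted p = 2.08e-05). Arterial endothelium and atrial muscle both express Gja5. The summed level of 10 arterial markers was 350.5 to 462 CPM in neonatal and 454 to 514 CPM in adult libraries, ranges that overlap. Of these markers, 0 were called higher and 3 lower in neonatal controls, and 2 higher and 3 lower in neonatal recipients. Of all genes, 15.4% were called higher and 15.6% lower in neonatal controls, and 26.9% and 23.8% in neonatal recipients. The summed level of 8 atrial markers was 1637 to 5817 CPM in neonatal controls and 286.6 to 1171 CPM in adult controls. In recipients it was 3285 to 7279 and 382.6 to 3567 CPM. Nppa measured 4200 ± 1860 CPM in neonatal and 580 ± 437 CPM in adult controls. It made up nearly all of the sum in neonatal libraries and a smaller part in some adult libraries. It was 188 of 286.6 CPM in adult control 6 and 215 of 382.6 CPM in adult recipient 2. The sum therefore mainly follows 1 gene and does not by itself give the amount of atrial tissue. Of the atrial markers 6 were tested. In neonatal controls 1 was called higher, Nppa itself, and 0 lower (30.9% of all genes were called). In neonatal recipients 1 was called higher and 1 lower (50.7%). Adult recipient 2 had the most Myl7 of all libraries, with Gja5 at 26.4 CPM. Adult recipient 4 had the most Nppa of the adult libraries, with Gja5 at 28.4 CPM, the highest adult value. The parts of arterial endothelium and of atrial cells in the Gja5 difference were not tested.

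Gjc1 was higher in neonatal hearts by a smaller margin. It measured 60.5, 62.5, 65.2 and 66.1 CPM in neonatal controls 6 to 9 and 65.6, 67.8, 61.3 and 59.2 CPM in neonatal recipients 1, 2, 4 and 5. It measured 56.1, 53.2 and 52.9 CPM in adult controls 5 to 7 and 49.5, 47.9, 43.5 and 47.1 CPM in adult recipients 1 to 4. All neonatal libraries lay above all adult libraries. The difference was 1.18-fold in controls (log2 fold change 0.23 ± 0.069, adjusted p = 0.0147, edgeR) and 1.35-fold in recipients (0.44 ± 0.064, adjusted p = 2.31e-05). The call in controls was at the edge of the threshold: the adjusted p was 0.0504 without adult control 7, and removal of the length trend gave 0.0511. Markers of smooth muscle and pericytes, the vascular cells known for Gjc1, summed to 2191 to 2603 CPM in neonatal and 2389 to 2818 CPM in adult libraries. Of 11 genes, 4 were called higher and 4 lower in neonatal controls (30.9% of all genes were called). In neonatal recipients 4 were also called higher and 4 lower (50.7%). The part of these cells in the Gjc1 difference was not tested.

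Per length, Gja1 stood far above the other connexins, at 163 ± 14.4 CPM per kb in neonatal controls beside 18.6 ± 0.749 for Gjc1 and 11.1 ± 1.61 for Gja5. In adult controls the levels were 155 ± 3.63, 15.8 ± 0.513 and 6.03 ± 0.108 CPM per kb. The order Gja1, Gjc1, Gja5 was the same in all 4 groups. Gja5 made up 5 to 6.86% of the summed connexin level in neonatal controls and 5.20 to 7.08% in neonatal recipients. It made up 3.39 to 3.44% in adult controls and 4.07 to 5.28% in adult recipients, so that the highest adult recipient lay inside the neonatal range. Adult recipient 4, with 5.28%, was also the adult library with the highest Nppa (3410 CPM against 188 to 1050 CPM in the other adult libraries). Whether the 2 are linked was not tested.

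Among the members, 3 of the 6 tested were called between neonatal and adult controls (Gja5 and Gjc1 higher, Hcn2 lower in neonates), where 30.9% of all genes tested were called (15.4% higher and 15.6% lower in neonates). Between recipients 4 of 6 were called, Gja1 beside the same 3 genes, where 50.7% of all genes were called (26.9% higher and 23.8% lower). With 6 members, these counts do not set the members apart from genes in general. The median absolute log2 difference over all genes was 0.24 in controls and 0.33 in recipients. Hcn2, Gja5 and the uncalled Hcn3 lay above it in both comparisons, and Gja1 and Hcn4 below it in both. Gjc1 lay below it in controls and above it in recipients. Groups did not overlap for the 3 called members in controls (34.6% of all genes, 16.9% higher and 17.7% lower) and for the 4 called members in recipients (45.4%, 23.8% higher and 21.6% lower). With libraries scaled by their totals alone, the median of all genes moved from 0.018 to 0.18 in controls and from 0.031 to 0.23 in recipients. The share of calls that were higher in neonates then moved from 49.7 to 78.5% in controls and from 53 to 75% in recipients. Gja1 in controls then passed at 0.24 ± 0.083 (adjusted p = 0.0275, edgeR), against the shifted median of 0.18.

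**Figure D3:**
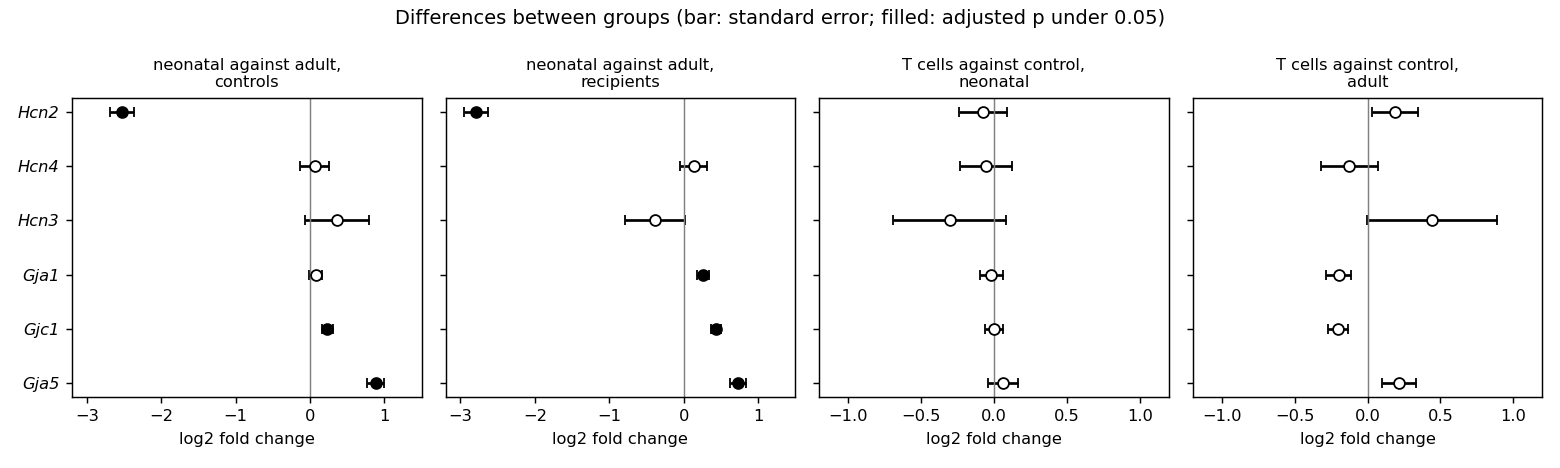
Log2 fold change (x axis) of the 6 tested members in 4 comparisons; bars are standard errors and filled points have an adjusted p under 0.05 (edgeR). Hcn2 lies at -2.53 and -2.79 and Gja5 at 0.88 and 0.73 in the age comparisons, whose x axis is wider than that of the T cell comparisons, where no point is filled.

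No member was called between neonatal hearts with and without adult T cells, and 0 of 6 had an unadjusted p under 0.05. The log2 differences between recipients and controls were -0.074 ± 0.165 for Hcn2, -0.053 ± 0.177 for Hcn4 and -0.30 ± 0.39 for Hcn3. For the connexins they were -0.020 ± 0.078 for Gja1, 0.061 ± 0.103 for Gja5 and -0.0015 ± 0.063 for Gjc1. None was called by edgeR, with an adjusted p of 0.999 for each member, and 0% of the 16437 genes were called, with 513 at an unadjusted p under 0.05. DESeq2 and limma voom also called 0 members and 0 genes. The 95% intervals ran from -0.17 to 0.13 for Gja1, from -0.12 to 0.12 for Gjc1, from -0.14 to 0.26 for Gja5 and from -0.40 to 0.25 for Hcn2. All members overlapped between these groups (1.36% of all genes did not overlap, 0.627% higher and 0.736% lower in recipients). Macrophages can express Gja1. Macrophage markers summed to 246 to 800 CPM in neonatal controls and 669 to 1007 CPM in neonatal recipients. Gja1 ranged from 566 to 684 and from 586 to 701 CPM in these groups, and the part of macrophages in it was not tested. Of the macrophage markers 0 of 10 were called by edgeR, with 4 at an unadjusted p under 0.05.

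In adult hearts the connexins differed in direction between recipients and controls, and no member passed the threshold. Gjc1 measured 46.96 ± 2.53 CPM in recipients and 54.1 ± 1.75 in controls (-0.20 ± 0.069, adjusted p = 0.0691), and Gja1 525 ± 26.3 and 603 ± 14.1 CPM (-0.20 ± 0.084, adjusted p = 0.133). Gja5 measured 25.6 ± 2.21 and 22.1 ± 0.397 CPM (0.21 ± 0.12, adjusted p = 0.247, all by edgeR). For these 3 genes the recipients and controls did not overlap, which was so for 25.1% of all genes tested in this comparison (13.1% higher and 12% lower). Of all genes 8.55% were called (3.53% higher and 5.03% lower), and 0 of 6 members, of which Gja1 and Gjc1 had an unadjusted p under 0.05. The summed level of 10 cardiomyocyte markers also differed between these groups, 54090 to 58990 CPM in recipients and 45010 to 48780 CPM in controls, with 3 called higher and 1 lower, and its part in the connexin values was not tested. The mitochondrial share of counts separated these groups too, at 18.3 to 21.8% in controls and 12.9 to 18% in recipients, and its part was not tested. Over all genes, the log2 differences had a Spearman correlation of -0.45 with transcript length across 15334 genes, which are not independent replicates. After removal of that trend the differences were -0.15 for Gja1, 0.25 for Gja5 and -0.19 for Gjc1, and 0 genes of the whole table passed.

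The pacemaker genes showed no difference beyond the spread in adult hearts. Hcn2 differed by 0.19 ± 0.16 (adjusted p = 0.466), and by 0.063 ± 0.150 without adult recipient 2. Hcn4 differed by -0.13 ± 0.20 (adjusted p = 0.728) and, after removal of the length trend, by 0.044, and Hcn3 by 0.44 ± 0.45 (adjusted p = 0.564). With single libraries left out, Hcn3 ranged from 0.021 (without adult control 7) to 0.83 (without adult control 5), and Hcn4 from -0.31 (without adult recipient 4) to -0.00037 (without adult control 7). Hcn2 and Hcn4 each overlapped between recipients and controls. DESeq2 and limma voom called 0 of the members as well.

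The T cell effect was also compared between ages. The difference of effects, neonatal minus adult, was -0.26 ± 0.23 for Hcn2, 0.072 ± 0.264 for Hcn4, -0.75 ± 0.59 for Hcn3, 0.18 ± 0.12 for Gja1, -0.15 ± 0.16 for Gja5 and 0.20 ± 0.093 for Gjc1. With single libraries left out these values ranged from -0.36 to -0.12 for Hcn2, from -0.053 to 0.26 for Hcn4, from -1.16 to -0.32 for Hcn3 and from -0.24 to -0.071 for Gja5. None was called (adjusted p from 0.315 to 0.923, edgeR), though Gjc1 had an unadjusted p of 0.0445, and edgeR called 0% of all genes, with 2511 at an unadjusted p under 0.05. DESeq2 called 178 genes and limma voom 0, with 0 members in each.

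Other genes of the same families were read from lists taken by symbol. Of 13 other sodium channel genes 10 were tested, and between controls 1 was higher and 2 were lower in neonatal hearts (median log2 difference -0.27, over all genes 0.018), which is close to the 30.9% of all genes called. Scn3b, a beta subunit gene, measured 0.974 ± 0.229 CPM in neonatal and 2.55 ± 0.080 in adult controls (-1.38 ± 0.23, adjusted p = 0.000265). Scn2b, another beta subunit gene, measured 1.01 ± 0.0697 and 0.572 ± 0.0716 CPM (0.81 ± 0.28, adjusted p = 0.0361). Scn4a, the alpha subunit of skeletal muscle, measured 1.78 ± 0.473 and 5.66 ± 0.740 CPM (-1.67 ± 0.29, adjusted p = 0.000426). The beta subunit genes Scn2b and Scn3b thus differed in opposite directions between ages. In recipients Scn3b, at 0.909 ± 0.202 CPM in neonatal and 1.86 ± 0.371 in adult hearts (adjusted p = 0.00123), and Scn4a (-1.94 ± 0.29, adjusted p = 3.05e-05) were called and no other gene of the list was.

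Of 17 other connexin genes 5 were tested and 0 were called between controls of the 2 ages by edgeR, with 1 at an unadjusted p under 0.05. Gja4, which with Gja5 forms the gap junctions of arterial endothelium, measured 27.98 ± 4.74 CPM in neonatal and 26.5 ± 2.47 in adult controls; it is named after its values were seen, as the usual partner of Gja5. Between recipients Gjd3 was called lower in neonatal hearts (-0.95 ± 0.23, adjusted p = 0.00225, edgeR). Gjd3, a connexin reported in the conduction system, measured 1.06 ± 0.297 CPM in neonatal and 2.02 ± 0.387 in adult recipients. Between recipients and controls 0 genes of the sodium channel and connexin lists were called at either age by edgeR, with 3 sodium channel genes in adult hearts at an unadjusted p under 0.05 and 0 otherwise. Of the rest of the connexin list, 12 genes were below the low-count filter.

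Genes of partner proteins of HCN channels and of the intercalated disc were called at about the rate of genes in general. All 18 on the list were tested, and 3 were higher and 3 lower in neonatal than in adult controls (median 0.016), where 15.4% of all genes were called higher and 15.6% lower. Jup, which encodes plakoglobin of desmosomes and adherens junctions, measured 224 ± 13.5 and 303 ± 32.3 CPM (-0.43 ± 0.088, adjusted p = 0.00127). Gpd1l, whose product is known to affect the sodium current, measured 50.3 ± 3.32 and 68.4 ± 4.83 CPM (-0.44 ± 0.084, adjusted p = 0.000699). Ank3, an ankyrin that anchors sodium channels, was higher in neonates (0.27 ± 0.080, adjusted p = 0.0149). Between recipients 5 were higher and 4 lower (26.9% and 23.8% of all genes), with Jup at -0.74 ± 0.082. Between neonatal recipients and controls 0 of 18 were called by edgeR and 0 had an unadjusted p under 0.05. In adult hearts 2 were called, Cav3, which encodes the muscle caveolin (0.34 ± 0.088, adjusted p = 0.0297), and Tjp1, which encodes a scaffold that binds connexins (-0.45 ± 0.12, adjusted p = 0.0315). Tjp1 measured 74.1 ± 9.63 CPM in adult recipients and 101 ± 9.59 in adult controls. No gene of the whole table, these 2 included, passed when adult recipient 4, adult control 5 or adult control 6 was left out, or after removal of the length trend.

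Among transcription factors of the conduction system and chambers, 20 of 21 were tested, and 4 were higher and 5 lower in neonatal than in adult controls (median -0.0080), where 30.9% of all genes were called. Tbx3 and Tbx2, T-box repressors that restrict the working myocardial programme in nodal and atrioventricular canal tissue, were lower in neonates. Tbx3 measured 6.95 ± 0.406 and 12.3 ± 0.472 CPM (-0.82 ± 0.16, adjusted p = 0.000869) and Tbx2 15.7 ± 2.17 and 26.3 ± 3.07 CPM (-0.74 ± 0.13, adjusted p = 0.000311). Tbx18, another T-box gene of the list, went the other way, at 22.4 ± 3.85 and 13.65 ± 2.04 CPM (0.71 ± 0.15, adjusted p = 0.00167, edgeR). Hey2, a repressor expressed in the compact ventricular wall, was higher in neonates at 36.1 ± 7.79 and 16.6 ± 2.30 CPM (1.13 ± 0.16, adjusted p = 6.86e-05). Hand1 was also higher, at 1.86 ± 0.243 and 0.218 ± 0.0225 CPM (3.07 ± 0.32, adjusted p = 2.92e-06), with the adult level near the floor. Between recipients 7 were higher and 7 lower, where 50.7% of all genes were called. Tbx18 was again higher in neonatal hearts there (1.03 ± 0.14, adjusted p = 1.15e-05, edgeR), and Tbx3 and Tbx2 were again lower. Between recipients and controls 0 of 20 were called in neonatal hearts by edgeR, with 2 at an unadjusted p under 0.05, and 1 in adult hearts, Prox1 (-0.42 ± 0.12, adjusted p = 0.0394), a call also lost under the settings given for Tjp1.

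Genes whose profile over the 15 libraries was nearest to that of each member were ranked by the root mean squared difference of log2 CPM after centring, among 11383 other genes with a group mean of at least 5 CPM. For Hcn2, whose own spread was 1.35 log2, the nearest were Tuba8, an alpha tubulin (0.181), Myh14, a nonmuscle myosin heavy chain (0.289), and Rxrg, a retinoid X receptor (0.297). Tuba8 measured 11.8 and 10.4 CPM in neonatal controls and recipients and 57.8 and 73.2 CPM in adult controls and recipients. For Gja5, with a spread of 0.42, the nearest were Bnip3, which encodes a mitochondrial protein of mitophagy and cell death (0.115), Gnpda1 (0.136) and Ppp2r1b (0.136). Bnip3 measured 105 and 120 CPM in neonatal controls and recipients and 55.3 and 62.9 CPM in adult controls and recipients. For Gjc1 (spread 0.197) they were Cul5, Ahctf1 and Cxadr, the last encoding a receptor at cell junctions, at 0.0487 to 0.0621, and for Gja1 (spread 0.141) Cul4a, Add3 and Srpk2 at 0.0407 to 0.0507. For Hcn4 (spread 0.258) the nearest genes, Ptprs, Grik5 and Lama5, lay at 0.162 to 0.179, and for Hcn3 (spread 0.543) at 0.412 or more, so neither was closely matched. These distances describe the libraries and share their depth and scaling.

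**Figure D4:**
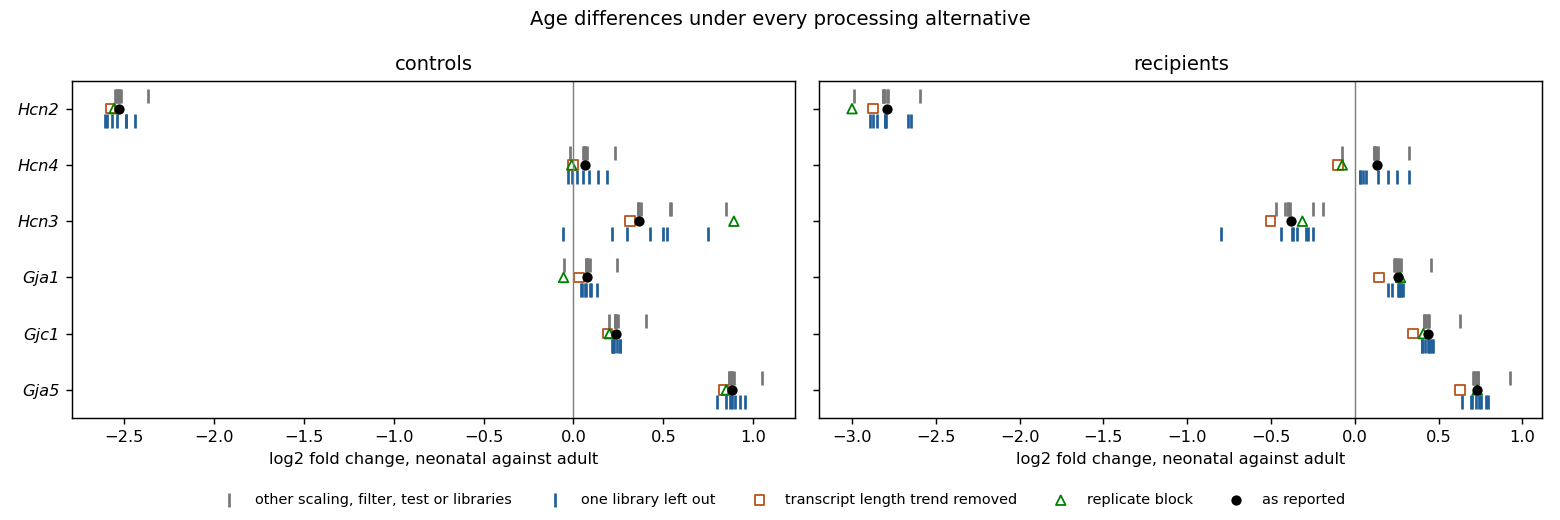
Log2 fold change of neonatal against adult hearts (x axis) for each tested member under every processing alternative, in controls (left) and recipients (right); symbols separate the reported value, single libraries left out, the length trend removed, the replicate block and all other settings. Hcn2 stays between -2.61 and -2.37 in controls and Gja5 between 0.80 and 1.05, while Hcn4 falls on both sides of 0.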

How the data were processed

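Left ventricular RNA of 15 libraries was measured by stranded, oligo-dT selected sequencing, per the labels' protocols. The authors deposited 1 table of expected counts, not normalized, for 39331 genes, in which 61.1% of non-zero values were whole. Per the submitters' processing notes, bcl2fastq 2.20.0.422, cutadapt 2.5, STAR 2.7.2b, featureCounts 1.6.4 and DESeq2 1.24.0 were used with GRCm38.p6. The strand setting and the rule for fractional counts are not given in the sources used here.

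Counts were rounded, filtered by filterByExpr (minimum count 10, total 15), scaled by TMM and fitted in edgeR 4.0.16 (R 4.3.3) by quasi-likelihood with robust settings, 1 coefficient per group, over all 15 libraries. The contrasts were tested two-sided: T cells against control at each age, their difference, and neonatal against adult hearts in controls and in recipients. Groups came from the sample titles. DESeq2 1.42.0, limma 3.58.1 (voom), other scalings and filters, removal of a length trend (natural spline, 5 degrees of freedom, GENCODE M21 lengths), a replicate block and leaving out each library were alternatives. Log2 CPM used a prior count of 1. Every member is named, and at most 4 called genes per family, partner or transcription factor list and contrast, those with the smallest p. Not all of these are printed. Tbx18 in controls is named beside them, after its values were seen. Not every gene of the families is reported here. Replicates were compared by chi-square, and none agreed within sampling noise (chi-square over degrees of freedom at least 9.13). The steps were tested on simulated data. The members and lists were chosen with earlier results of these data known.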

Additional observations from a re-analysis of the deposited data

Results flagged for a closer look

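Hcn3 in neonatal recipient 2 stood apart from its group, at 0.667 CPM beside 0.261 to 0.329 CPM in the other neonatal recipients. It rested on 22 counts, against 6.5 to 11 in the others. Without that library the T cell difference of Hcn3 in neonatal hearts was the lowest of those with a library left out, -0.72 against -0.30 with all libraries.

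The share of Gjc1 in the summed connexin level per length stood apart in neonatal control 7, at 10.6% beside 9.35 to 9.39% in the other neonatal controls. That library had Gjc1 at 62.5 CPM, inside the range of its group, and the lowest Gja1 (566 CPM) and Gja5 (34.6 CPM) of the group. Groups of 4 were examined for 7 genes and 6 shares, and chance marks about 1 in 20 such groups. Groups of 3 were not examined.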

How the results depend on the processing

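The count of members called stayed within a factor of 1.5 under every alternative run: 0 of 6 for T cells at each age and for the difference, 2 to 4 between controls of the 2 ages, and 3 or 4 between recipients. Hcn2 and Gja5 kept their direction and stayed called under every alternative of both age comparisons, with Hcn2 at -2.61 to -2.37 in controls and -3.00 to -2.59 in recipients, and Gja5 at 0.80 to 1.05 and 0.63 to 0.92. Hcn4 turned its sign with the transcript length trend removed, to 0.044 (T cells, adult), -0.099 (difference), -0.0017 (age, controls) and -0.10 (age, recipients); it was called in none of these. With 1 library left out, the uncalled differences of T cells in neonates ranged from -0.16 to 0.070 for Hcn2, -0.16 to 0.061 for Hcn4, -0.078 to 0.018 for Gja1, -0.029 to 0.14 for Gja5 and -0.035 to 0.030 for Gjc1. The difference of effects of Hcn4 ranged from -0.053 to 0.26, and the age differences in controls from -0.029 to 0.19 for Hcn4 and from -0.058 to 0.75 for Hcn3. The cause of these turns was not tested.

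Replicate numbers are shared by both ages (1, 2 and 4 in recipients, 6 and 7 in controls). Deviations of same-numbered libraries from their group means correlated at 0.0721, 0.111 and -0.0709 in recipients and at -0.0614 and 0.31 in controls, and 1 of 3 neonatal and 2 of 3 adult recipients correlated best with their own number, so the numbers were not taken to pair the libraries. With the replicate block, 2 members were called in controls and 3 in recipients; Hcn4 was at -0.010 and -0.074, and Gja1 in controls at -0.055. Gjc1 in controls (0.20, adjusted p = 0.215) and Gja1 in recipients (0.27, adjusted p = 0.0642) were not called. In the same libraries with no block, a setting chosen after seeing the data, 2 and 4 members were called, Hcn4 was at -0.018 and -0.074 and Gja1 in controls at -0.054. Over all genes, T cells in adult hearts gave 1406 calls (41.3% higher), against 2320 with DESeq2 (53.4% higher), 30.7% higher with library totals, 0 to 1244 with 1 library left out and 0 after removal of the length trend, which in the age comparison of recipients moved the higher share from 53 to 39.7%. Between controls 5085 genes were called, and 3017 in the libraries numbered 6 and 7 alone. Depth limits Scn4b and Hcn3, whose libraries held at most 10 and 23 counts.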
